A study of Mus musculus with 40 samples.

Results

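Genes for protein folding, the proteasome and the ubiquitin system were followed across mouse cell lines, primary cells and tissues. The members were chosen by symbol: every spot with 1 gene symbol from the families Cct, Hsp, Dnaj, Fkbp, Psm, Ube, Usp, Fbx, Rnf, Trim or Cul, without the immunoproteasome subunits Psmb8 and Psmb9. That gave 90 genes of the 3284 genes named on the array, each represented by its brightest spot. Of these, 15 act in folding, 11 belong to the proteasome, 49 to ubiquitin transfer and 15 to ubiquitin removal.

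RNA was measured on nylon filter arrays with 1 radioactively labelled sample per filter. The lines grown at low density made 6 groups. Preadipocyte lines formed the first (3T3-L1 with 2 samples, then 3T3-F442A, Ob1774 and Hgfu with 1 each). C2C12 myoblasts in proliferation (3 samples) were grouped by their titles, as their source name calls them preadipocytes. The other line groups were mesenchymal C3H-10T1/2 cells (3), macrophages of the lines Raw 264 (3) and J774 (2), and ZIN40 stem cells of embryonic origin (3). The last were kept with LIF, a cytokine that maintains the undifferentiated state. Cells differentiated in culture were 3T3-F442A adipocytes after 7 days with rosiglitazone (3) and C2C12 myotubes after 7 days in HS medium (2). Primary cells were adherent stroma-vascular fraction (SVF) cells of inguinal white adipose tissue (3) and peritoneal macrophages (3), both 24 h after plating. Tissue samples were adipocytes freed from inguinal white adipose tissue (IWAT) with collagenase (3), tibialis muscle (2) and liver (2). The labels give no strain, age or genotype, and do not say whether the replicates of a group are separate animals or cultures. A p-value therefore reflects how far these samples scatter, and that scatter may be technical. Every line group other than the preadipocytes is 1 line. A further 3 arrays of ZIN40 cells without LIF hold values of another kind and enter no comparison.

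Newly made proteins fold with the help of chaperones. The Cct ring folds actin and tubulin, Hsp70 proteins work with Dnaj partners, and Hspe1 is the lid of the mitochondrial chaperonin. Proteins to be destroyed are tagged with ubiquitin by Ube2 conjugating enzymes and by ligases, among them the Rnf and Trim RING proteins and the Fbx receptors of cullin complexes. Usp proteases take ubiquitin off again, and the proteasome, a barrel of alpha and beta rings capped by the 19S particle with its Psmd subunits, degrades the tagged protein.

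Promoter sequences are shown for Cct2, Cct6a and Hspe1, chaperonin genes that were all higher in the growing lines. RefSeq's table for GRCm38.p6 held a promoter for 76 of the 90 members. It was searched on both strands, in the 250 bases before each start, for the heat shock element cores GAANNTTC and TTCNNGAA, for the CCAAT box CCAAT and for the GC box GGGCGG. Both heat shock cores read the same on either strand and can overlap. Capitals mark every match. The outermost of the 2 starts listed for Cct2 has 4 GC boxes in its 250 bases (chr10:117063853-117064102, minus strand) and neither heat shock core:
Cct2 outermost start: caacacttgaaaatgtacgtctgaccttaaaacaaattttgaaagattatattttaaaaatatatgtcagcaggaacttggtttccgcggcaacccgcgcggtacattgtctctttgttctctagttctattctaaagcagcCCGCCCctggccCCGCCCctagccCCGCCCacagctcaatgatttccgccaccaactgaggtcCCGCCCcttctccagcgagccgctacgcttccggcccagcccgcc
The next stretches, of 30 bases each, lie inside other annotated transcripts. They are from before the inner start of Cct2 (chr10:117063394-117063423, minus strand), within the Cct2 gene itself, before the start of Cct6a (chr5:129787295-129787324, plus strand), where Psph also lies, and before the start of Hspe1 (chr1:55088053-55088082, plus strand), where Hspd1 also lies:
Cct2 inner start: agtgaaGAAGTTTCtagcaggacctgctgg
Cct6a: agCCAATcagcGGGCGGcaggagggtcgcc
Hspe1: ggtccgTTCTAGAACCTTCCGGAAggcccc
Hspe1 had 3 overlapping heat shock cores in a row, which began 89, 84 and 79 bases before its start. Cct2 had 1, which began 42 bases before its inner start, and Cct6a had none. The core GAANNTTC was found for 7 of the 76 members (9.21%) and 7.73% of all genes in the table, or 6.69% of its 32851 promoters. Of members called below in lines against tissues, it was found for 2 of 8 higher in the lines (Cct2 and Hspe1). It was also found for 1 of 5 higher in the tissues (Rnf220), where it began 39 bases before the start. TTCNNGAA was found for 8 members (10.5%), 8.11% of genes and 7.17% of promoters. The CCAAT box was found for 31 members (40.8%), 37.5% of genes and 33.8% of promoters. The GC box was found for 52 members (68.4%), 35.4% of genes and 32.7% of promoters. The shares of genes are over all 27025 genes of the table, which is not limited to genes on the array. No share was taken over the array's genes, so these numbers cannot show whether the members differ from them. These matches describe letters in a window and were not tested for use.

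Depth on these filters is the spot signal. The median intensity per array ran from 18870.5 to 132228 over the 37 arrays compared, and 52 of the 90 members lay above the brightness of the median spot. Only 17 of the 37 arrays correlated best with an array of their own group. The mean correlation with the own group was lowest, at -0.07, in the preadipocyte line Hgfu, followed by -0.06 in the 2nd stem cell array. Groups of 2 to 4 replicates limit the precision. Markers bore out the labels of liver (5 of 5 measured markers highest in liver) and tibialis muscle (6 of 7, with Tnnc1 highest in myotubes). Of the liver markers, Ttr was all but level, at 16.682 in liver and 16.677 in C2C12 myotubes. Adipocyte markers were highest in the adipocyte groups for 3 of 4 and macrophage markers in the macrophage groups for 4 of 5, the exceptions being Cidec and Vav1. No pluripotency marker was measured. Levels below are log2(quantile-normalized intensity + 36370), and a difference is given ± its SE in the limma fit with a Benjamini-Hochberg adjusted p over all spots. A gene is called at an adjusted p under 0.05.

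The broadest comparison set the mean of the 6 growing line groups (18 samples, with the 3T3-L1 samples averaged) against the mean of IWAT adipocytes, tibialis muscle and liver (7 samples). The chaperonin genes Cct2, Cct6a and Hspe1, the immunophilin Fkbp1a, the 19S subunit Psmd13 and the conjugating enzyme Ube2q1 were among 9 members higher in the lines. The conjugating enzyme Ube2h, the ligase gene Rnf34 and the muscle chaperone Hspb8 were among 5 higher in the tissues. In all, 14 of 90 members (15.6%) were called, against 11.4% of all 3284 genes. Higher in the lines were 9 members where all genes gave 5.79%, and higher in the tissues 5 where all genes gave 5.6%. The members' median difference was 0.01, against -0.01 over all genes. The count was 9 without the 2nd tibialis sample, 15 without Hgfu, 8 without the IWAT adipocyte group and 8 without the tibialis group. With the group as a random block it was 6 (Cct2, Cct6a, Psmd13, Fkbp1a, Hspe1 and Ube2h), with median scaling 3 (Cct2, Cct6a and Fbxl17) and with no scaling 0. With background subtracted it split into 9 higher and 1 lower, Fbxl17, Hspb8, Rnf34 and Rnf220 being lost.

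Folding genes held 6 of the 14. Among the 15 of them, 5 rose in the lines and 1 fell, 12 differences were positive, and their median was 0.13. Cct2, a subunit of the Cct ring, lay between 16.51 and 17.43 in the lines (median 16.87) and between 16.30 and 16.57 in the tissues (median 16.33). Of the 18 line samples, 17 lay above every tissue sample. The difference was 0.52 ± 0.07 (adjusted p = 2.90e-06), or 1.43-fold on this scale. Cct6a, another ring subunit, ran from 16.21 to 17.30 in the lines (median 16.85) and from 16.11 to 16.62 in the tissues (median 16.27). Here 15 line samples lay above all tissue samples, and the exceptions were C3H-10T1/2 replicates at 16.53 and 16.21 and a stem cell replicate at 16.58. The difference of Cct6a was 0.53 ± 0.09 (adjusted p = 4.71e-05). Cct2 and Cct6a passed the test without any 1 sample and without any 1 of the 9 groups.

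**Figure D1:**
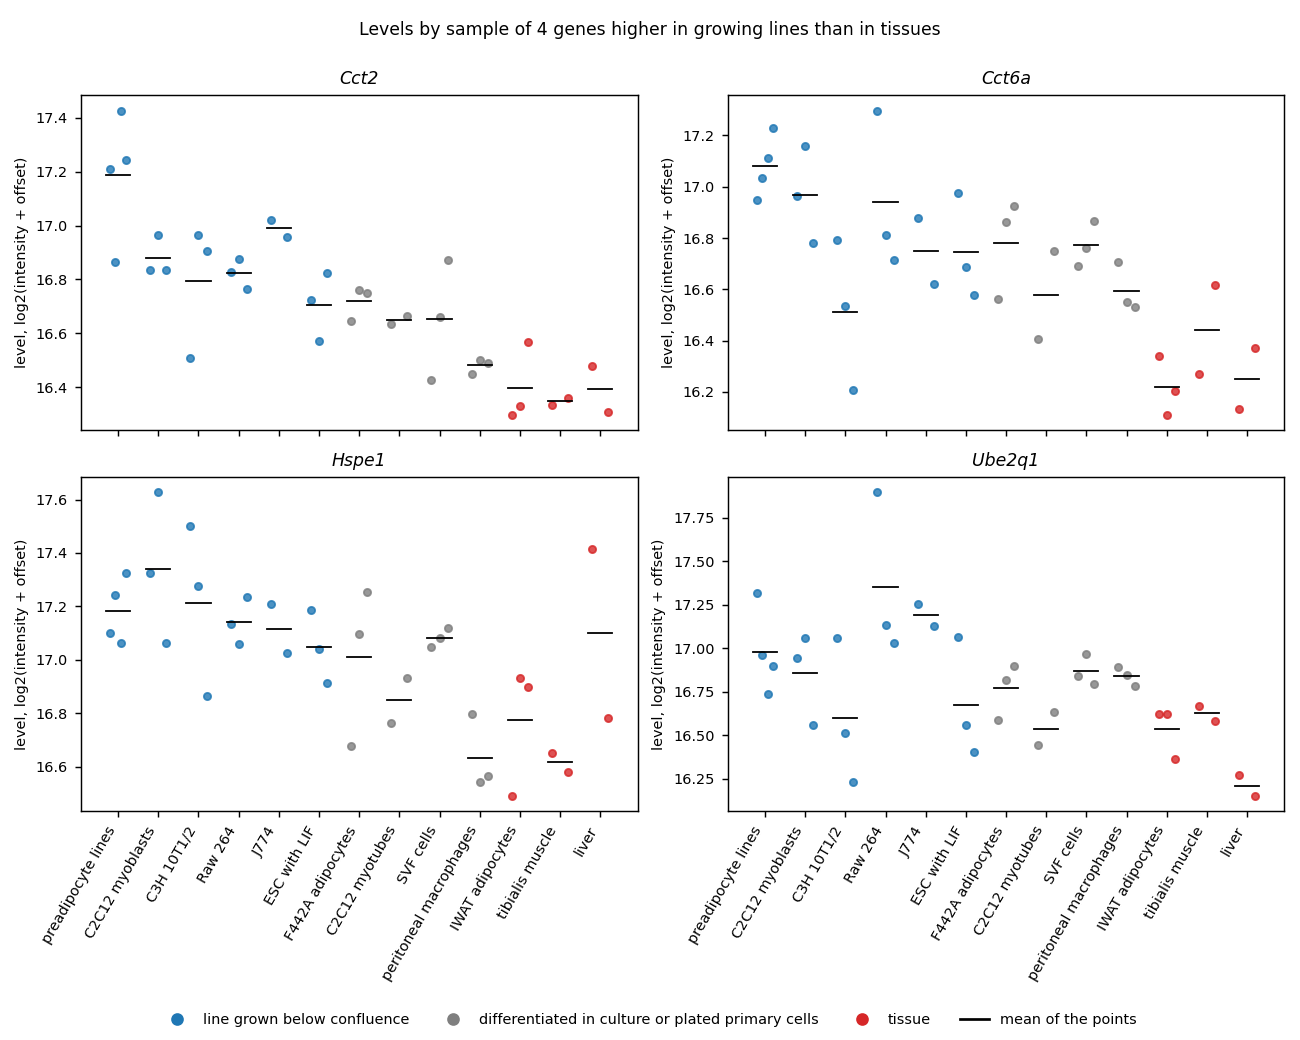
Levels of Cct2, Cct6a, Hspe1 and Ube2q1 in every sample, as log2(intensity + offset), by group; bars are means, and the 3T3-L1 samples are averaged into 1 point. Cct2 in the tissues stayed at or below 16.57, and 17 of the 18 line samples lay above that.

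Hspe1, the mitochondrial co-chaperonin, lay between 16.87 and 17.63 in the lines (median 17.16) and between 16.49 and 17.42 in the tissues (median 16.78). The highest tissue value was 1 liver sample, the other being at 16.78, so the groups overlapped and only 2 line samples lay above all tissue samples. Hspe1 differed by 0.34 ± 0.09 (adjusted p = 0.0131). The call was lost without the 2nd tibialis sample, the 2nd liver sample, the IWAT adipocyte group or the tibialis group. Fkbp1a, a prolyl isomerase bound by rapamycin and FK506, ran from 16.29 to 16.99 in the lines (median 16.65) and from 16.18 to 16.53 in the tissues (median 16.32). Its difference was 0.34 ± 0.08 (adjusted p = 0.00517), and 14 line samples lay above all tissue samples. Dnajc5, a chaperone of secretory vesicles, differed by 0.25 ± 0.07 (adjusted p = 0.0142) at its brightest spot. The second spot of Dnajc5 gave -0.01 ± 0.09 (adjusted p = 0.980), so its spots disagreed. The call at the brightest spot was lost without the 1st tibialis sample, the 2nd liver sample, the IWAT adipocyte group or the liver group.

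Hspb8, a small heat shock protein of muscle, was the 1 folding gene higher in the tissues. Its levels ran from 16.23 to 16.95 in the lines (median 16.42) and from 16.31 to 17.11 in the tissues (median 16.67). The difference of lines minus tissues was -0.24 ± 0.08 (adjusted p = 0.0308), and it was not called without the tibialis, J774 or stem cell group, nor without any of 4 tissue samples (the 2nd tibialis, either liver or the 1st IWAT sample). Hspb8 lay at 16.84 and 17.11 in tibialis muscle and at 16.99 and 16.85 in C2C12 myotubes, where liver had 16.71 and 16.67. The preadipocyte line Hgfu reached 16.95, and the other preadipocyte lines ran from 16.40 to 16.54. The other 9 folding genes did not pass. Dnajb4, a partner of Hsp70, stood at 0.22 ± 0.09 (adjusted p = 0.149) and Dnajc10, a reductase of the endoplasmic reticulum, at 0.19 ± 0.09 (adjusted p = 0.179).

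Of the 11 proteasome genes, 1 was called and 9 had positive differences, with a median of 0.16. Psmd13, a 19S lid subunit, ran from 16.48 to 17.27 in the lines (median 16.83) and from 16.32 to 16.64 in the tissues (median 16.47). In 16 of the 18 line samples it exceeded all tissue samples. The difference was 0.36 ± 0.10 (adjusted p = 0.0129). Without the IWAT adipocyte group, the 2nd tibialis sample or the 1st liver sample, the call was lost. All 7 genes of the 19S particle and its regulators had positive differences, between 0.06 and 0.36, but the other 6 did not pass. That set includes Psme3ip1, whose product binds a proteasome activator and is no subunit. Psmd7 stood at 0.23 ± 0.08 (adjusted p = 0.0582) and Psmd8 at 0.20 ± 0.07 (adjusted p = 0.0620). In the core particle the alpha ring gene Psma1 had 0.28 ± 0.11 (adjusted p = 0.114) and the catalytic beta ring gene Psmb5 0.14 ± 0.06 (adjusted p = 0.170).

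Ubiquitin transfer genes moved in both directions: of 49, 3 rose in the lines, 4 fell, and the median was 0.00. Ube2q1, a conjugating enzyme, lay between 16.23 and 17.90 in the lines (median 16.99) and between 16.15 and 16.67 in the tissues (median 16.58). It lay at 17.90, 17.13 and 17.03 in Raw 264 and at 17.25 and 17.13 in J774. The preadipocyte line 3T3-F442A was at 17.32, and the other preadipocyte lines ran from 16.74 to 16.96. Its difference was 0.48 ± 0.11 (adjusted p = 0.00221). Ube2h, another conjugating enzyme, went the other way, with 16.38 to 16.99 in the lines (median 16.53) and 16.64 to 17.08 in the tissues (median 16.93). For Ube2h 12 line samples lay below all tissue samples, and the difference was -0.34 ± 0.08 (adjusted p = 0.00263). Both calls held without any 1 sample and without any 1 of the 9 groups, but that of Ube2q1 was lost with the group as a random block (adjusted p = 0.0776).

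Rnf34, a RING ligase, had 16.28 to 17.07 in the lines (median 16.75) and 16.12 to 17.61 in the tissues (median 17.36). The lowest tissue value was the 2nd liver sample, whereas the 1st liver sample was at 17.36. The difference was -0.41 ± 0.12 (adjusted p = 0.0295), and it was -0.20 without the 1st liver sample and -0.61 without the 2nd. The call was lost in the first case, and without either tibialis sample, the 1st J774 sample, the 2nd or 3rd IWAT sample, or the Raw 264, IWAT adipocyte or tibialis group. Fbxl17, an F-box receptor, stood at 16.06 to 16.83 in the lines (median 16.46) and 16.24 to 17.06 in the tissues (median 16.84). Its difference was -0.32 ± 0.08 (adjusted p = 0.00486), and it did not pass without the tibialis group or the 1st liver sample, with background subtracted, or with the group as a random block (adjusted p = 0.0853). Rnf220, a RING ligase, differed by -0.22 ± 0.07 (adjusted p = 0.0358), which became -0.14 without the 2nd tibialis sample, and its call was lost in 10 of 26 fits that left out 1 sample. Fbxo17, an F-box gene, had the largest difference of the members, 0.83 ± 0.26 (adjusted p = 0.0312), and the widest spread. Its replicates ran from 16.72 to 19.49 in Raw 264 alone, and its call was lost without the Raw 264, J774, IWAT adipocyte or liver group, the 1st tibialis, J774 or IWAT sample, or the 2nd liver sample. Fbxo2, an F-box receptor for glycoproteins, differed by 0.25 ± 0.08 (adjusted p = 0.0314). Its call was lost without the 1st tibialis, liver or IWAT sample or without the preadipocyte, Raw 264, IWAT adipocyte or tibialis group. The spots of Fbxo2 and Rnf220 were dim, at percentiles 17.7 and 25 of brightness, so a fit of bright spots only did not include them.

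**Figure D2:**
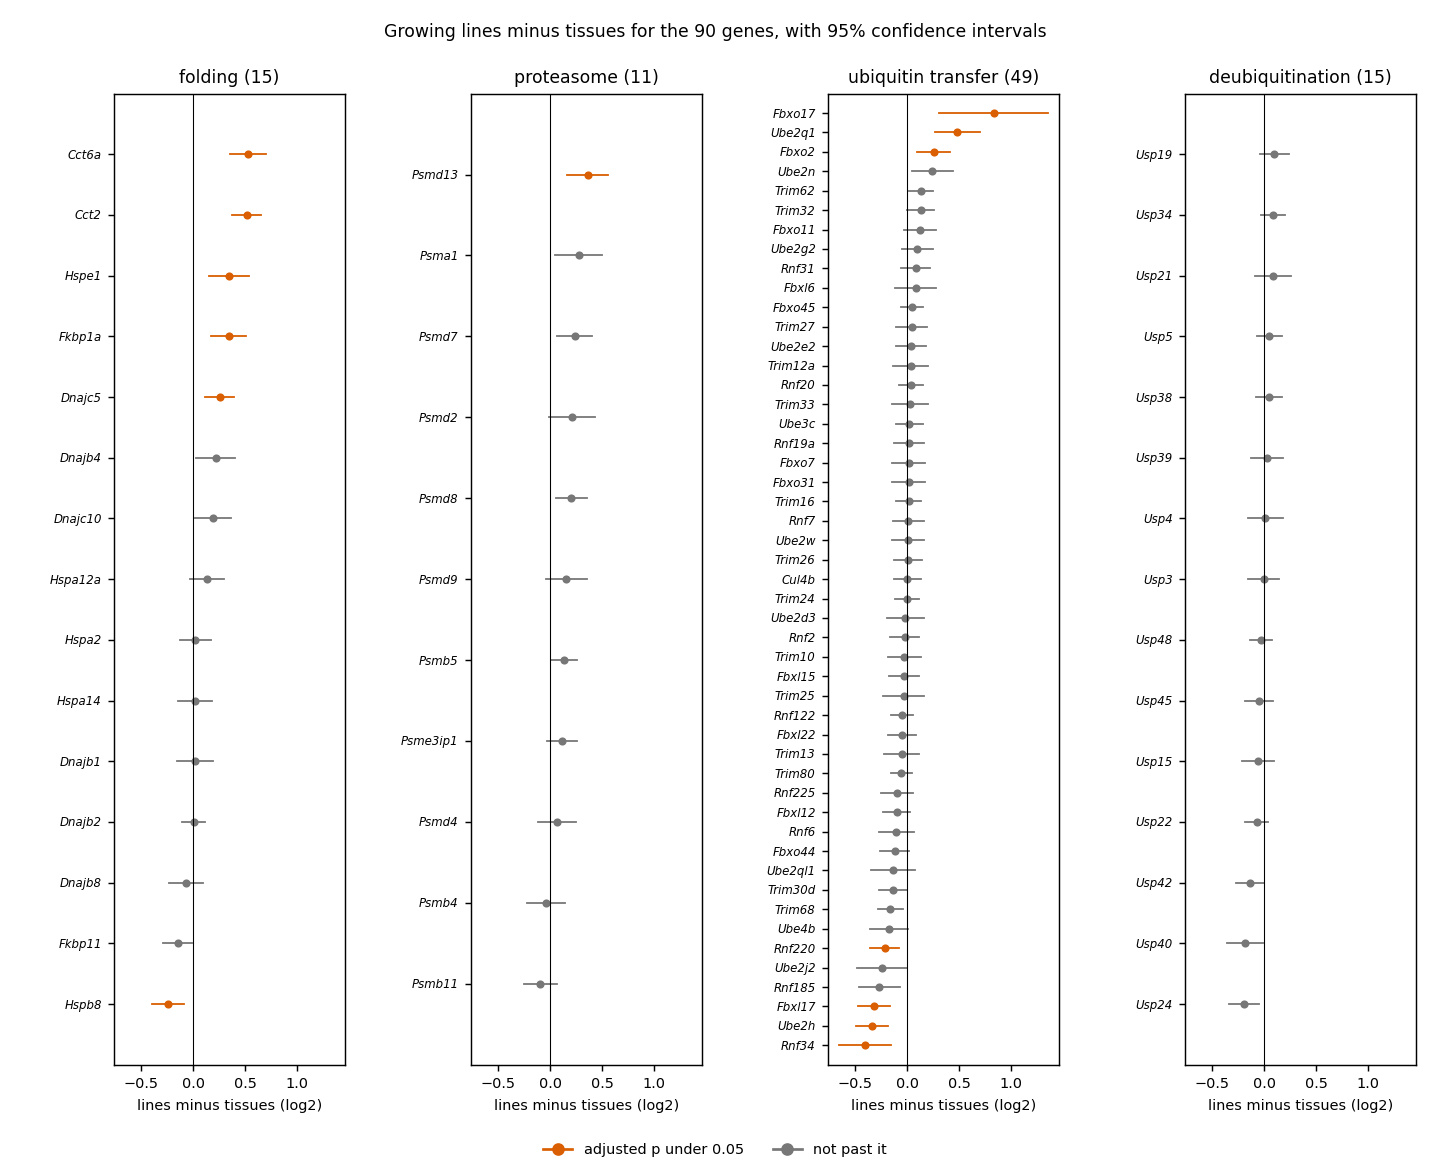
Difference of growing lines minus tissues (log2) for each of the 90 members in 4 role classes; points are estimates and bars 95% confidence intervals from the limma fit, with orange for adjusted p under 0.05. Folding genes hold 5 called positive differences and 1 negative, and ubiquitin removal genes hold no called gene.

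None of the 15 Usp genes was called by limma in this comparison. Their differences lay between -0.19 and 0.10, with a median of -0.01. Usp24 had the smallest p, at -0.19 ± 0.07 (adjusted p = 0.0804; 95% interval -0.34 to -0.05), and its second spot gave 0.05 ± 0.08. Among the 14 Trim genes, ligases many of which act in antiviral defence, no call was made by limma either. The cullin gene Cul4b stood at 0.00.

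The means of the 6 line groups and of the 3 tissue groups did not overlap for 10 of the 90 members, against 9.26% of all genes. Cct2, Cct6a, Fkbp1a, Psmd13, Fbxo17, Fbxo2 and Trim32 were higher in every line group, and Rnf185, Rnf220 and Ube2h in every tissue group. Trim32 and Rnf185 were not called. In bulk samples fewer cells of a type and less RNA per cell cannot be told apart. Markers of the tissues' own cells moved with the comparison: 5 of 7 skeletal muscle, 4 of 5 liver and 3 of 4 adipocyte markers were lower in the lines. The summed muscle markers ran from 19.11 to 19.73 in the lines and from 19.36 to 21.51 in the tissues, and the liver markers from 18.55 to 18.92 and from 18.95 to 21.57. The adipocyte markers ran from 18.49 to 18.90 and from 18.66 to 19.47. The erythroid marker Hbb-b1, 1 of 2 listed, ran from 16.07 to 16.76 in the lines and from 16.71 to 19.11 in the tissues. Of 4 cell cycle genes, Kif20a rose (0.39 ± 0.08) and Mki67 fell (-0.36 ± 0.08) in the lines, and their sum ran from 18.31 to 18.97 in the lines and from 18.40 to 18.59 in the tissues. The matrix gene Timp2, the 1 fibroblast and matrix marker measured of 7, rose in the lines (1.05 ± 0.18) and ran from 16.24 to 18.92 there and from 16.10 to 16.53 in the tissues. Of 5 immediate early and stress genes Zfp36 fell in the lines (-0.27 ± 0.08), and their sum ran from 18.51 to 18.85 and from 18.61 to 19.19. The offset keeps every level above 0, so these levels do not show which markers were detected. The part of these in the members' differences was not tested.

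Fat cells were compared from precursor lines to adipocytes of culture and tissue. The comparisons share sample groups with each other and with the one above, so their values are given side by side only. In 3T3-F442A adipocytes against the preadipocyte lines, limma called no member (0.183% of all genes). Only 1 of those lines, with 1 sample, is 3T3-F442A, so differentiation and differences between lines cannot be told apart here. Cct2 lay at 16.65, 16.76 and 16.75 in the adipocytes. It lay at 16.87 in 3T3-L1, 17.21 in 3T3-F442A, 17.24 in Ob1774 and 17.43 in Hgfu preadipocytes. All adipocyte samples were below all lines, with a difference of -0.47 ± 0.12 (adjusted p = 0.0892). The members nearest to a call in the other classes were Cul4b (-0.34 ± 0.11, adjusted p = 0.231), Psmd2 of the 19S base (-0.51 ± 0.18, adjusted p = 0.308) and Usp5, which recycles free ubiquitin chains (-0.22 ± 0.10, adjusted p = 0.431). The difference of Psmd2 was -0.19 without Hgfu and that of Cul4b -0.21, and 1 member was called without the 2nd 3T3-L1 sample.

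IWAT adipocytes against 3T3-F442A adipocytes set fat cells from tissue against fat cells made in culture. The members Cct6a and Dnajb4 were lower in the tissue cells, 2 of 90 where 2.31% of all genes were called. Cct6a lay at 16.34, 16.11 and 16.20 in IWAT adipocytes and at 16.56, 16.86 and 16.92 in 3T3-F442A adipocytes. The groups did not overlap, and the difference was -0.56 ± 0.15 (adjusted p = 0.0400). Dnajb4 lay at 16.36, 16.47 and 16.46 in the tissue cells and at 16.90, 17.23 and 16.95 in the cultured cells. It too did not overlap, and it differed by -0.60 ± 0.17 (adjusted p = 0.0475). Each call was lost without any 1 of the samples other than the 1st 3T3-F442A sample, and the count ran from 0 to 5 members over the 6 fits. Without that sample 5 were called. Psmd13 (-0.54 ± 0.18, adjusted p = 0.0866), Fbxo2 (-0.48 ± 0.14, adjusted p = 0.0616) and Usp34 (-0.28 ± 0.10, adjusted p = 0.126) did not pass. Usp34 stood at -0.42 without the 1st 3T3-F442A sample, where it was called, and at -0.17 without the 2nd. The B-cell marker Cd79b, the 1 lymphocyte marker measured of 6, was higher in IWAT adipocytes (17.50 to 17.86) than in 3T3-F442A adipocytes (16.71 to 17.14). Its spot ran from 16.23 to 17.64 over the growing lines, with the top value in C3H-10T1/2, so its level does not show B cells by itself. Timp2 was lower in IWAT adipocytes (-1.87 ± 0.32), at 16.23 to 16.53 against 17.91 to 18.87. The stress genes Zfp36 (1.08 ± 0.15) and Dusp1 (0.59 ± 0.12), 2 of 5 measured, were higher there, and the sum of the 5 ran from 18.90 to 19.19 against 18.55 to 18.74. Of 4 adipocyte markers Retn was higher (0.94 ± 0.15) and Lpl lower (-0.69 ± 0.17), and their sum ran from 19.001 to 19.47 against 19.12 to 19.47. The part of these markers was not tested.

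SVF cells against IWAT adipocytes compared both fractions of 1 depot. Limma called no member (0.7% of all genes). Same-numbered samples correlated at 0.26, 0.10 and 0.39, and any pairing of them rests on that alone. With the number as a block, in a fit of these groups alone, 4 of 90 were called. That share is near the 3.9% of all genes called in that fit. Cct6a was higher in SVF cells by 0.55 ± 0.10 (adjusted p = 0.0144), Ube2n by 0.50 ± 0.09 (adjusted p = 0.0149) and Fbxo17 by 0.51 ± 0.11 (adjusted p = 0.0409), and Rnf34 was lower by -0.61 ± 0.11 (adjusted p = 0.0179). Ube2n, which builds the K63-linked chains of inflammatory signalling, lay at 17.07, 17.13 and 16.97 in SVF cells and at 16.49, 16.58 and 16.59 in adipocytes. Cct6a lay at 16.69, 16.76 and 16.87 in SVF cells, above the adipocyte values given before. In a fit of the same groups without the block Cct6a and Ube2n were called as well (adjusted p = 0.0193 for each), where 1.92% of all genes were, and Fbxo17 (adjusted p = 0.212) and Rnf34 (adjusted p = 0.171) were not. In the fit over all groups the adjusted p was 0.0975 for Cct6a, 0.274 for Ube2n, 0.859 for Fbxo17 and 0.350 for Rnf34. Psma1 (0.41 ± 0.20, adjusted p = 0.544) and Usp48 (-0.14 ± 0.09, adjusted p = 0.760) had the smallest p of their classes, and Psma1 stood at 0.65 without the 1st SVF sample and 0.19 without the 3rd. The adipocyte markers Retn (-0.89 ± 0.15) and Pnpla2 (-0.63 ± 0.11), 2 of 4, were lower in SVF cells, as was the stress gene Zfp36 (-0.79 ± 0.15), 1 of 5 measured. The summed adipocyte markers ran from 18.61 to 18.78 in SVF cells and from 19.001 to 19.47 in adipocytes, and the stress genes from 18.80 to 18.90 and from 18.90 to 19.19. Their part was not tested.

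In muscle cells, C2C12 myotubes against C2C12 myoblasts gave no limma call among the members (0.213% of all genes). Fkbp1a, which also stabilises the calcium release channel of muscle, lay at 16.39 and 16.63 in myotubes and at 16.98, 16.97 and 16.99 in myoblasts. The groups did not overlap, and the difference was -0.47 ± 0.17 (adjusted p = 0.294). Hspe1 stood at -0.49 ± 0.19 (adjusted p = 0.334). The ubiquitin receptor Psmd4 (0.47 ± 0.18, adjusted p = 0.342), the ligase gene Rnf6 (0.41 ± 0.16, adjusted p = 0.371) and Usp22, part of a chromatin complex (-0.18 ± 0.11, adjusted p = 0.616), did not pass. Psmd4 and Rnf6 stood at 0.24 and 0.23 without the 1st myotube sample, and Usp22 at -0.09 without the 3rd myoblast sample.

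Tibialis muscle against C2C12 myotubes also gave no limma call among the members (1.07% of all genes). Rnf34 lay at 17.28 and 17.43 in the muscle and at 16.22 and 16.51 in the myotubes. It had the largest difference here, 0.99 ± 0.27 (adjusted p = 0.0727). Cct2 (-0.30 ± 0.15, adjusted p = 0.579), Psmd9, an assembly chaperone of the 19S base (-0.35 ± 0.21, adjusted p = 0.691), and Usp21 (-0.31 ± 0.19, adjusted p = 0.717) did not pass. With 1 sample left out Psmd9 ran from -0.56 to -0.15 and Usp21 from -0.49 to -0.12. The spot of Usp21 was dim, at percentile 3.6 of brightness. Leaving out 1 sample here leaves 1 in its group, so the calls of those fits are not read as results.

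Liver against tibialis muscle gave no limma call among the members (2.25% of all genes). The F-box gene Fbxl15, a dim spot at percentile 2.5 of brightness, was nearest, at 0.50 ± 0.15 (adjusted p = 0.0834). Fbxl17 followed at -0.50 ± 0.17 (adjusted p = 0.123). Fbxl17 lay at 16.84 and 16.24 in liver and at 17.02 and 17.06 in tibialis muscle. Usp45 (-0.38 ± 0.15, adjusted p = 0.186), Dnajc5 (-0.40 ± 0.15, adjusted p = 0.198) and the thymic subunit gene Psmb11 (-0.35 ± 0.18, adjusted p = 0.335) led the other classes. Dnajc5 stood at -0.21 without the 2nd tibialis sample and -0.25 without the 2nd liver sample. Fits without 1 liver or tibialis sample leave 1 in that group, and their calls are not read as results. The liver replicates differed widely for several members, Rnf34 at 17.36 and 16.12 among them.

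**Figure D3:**
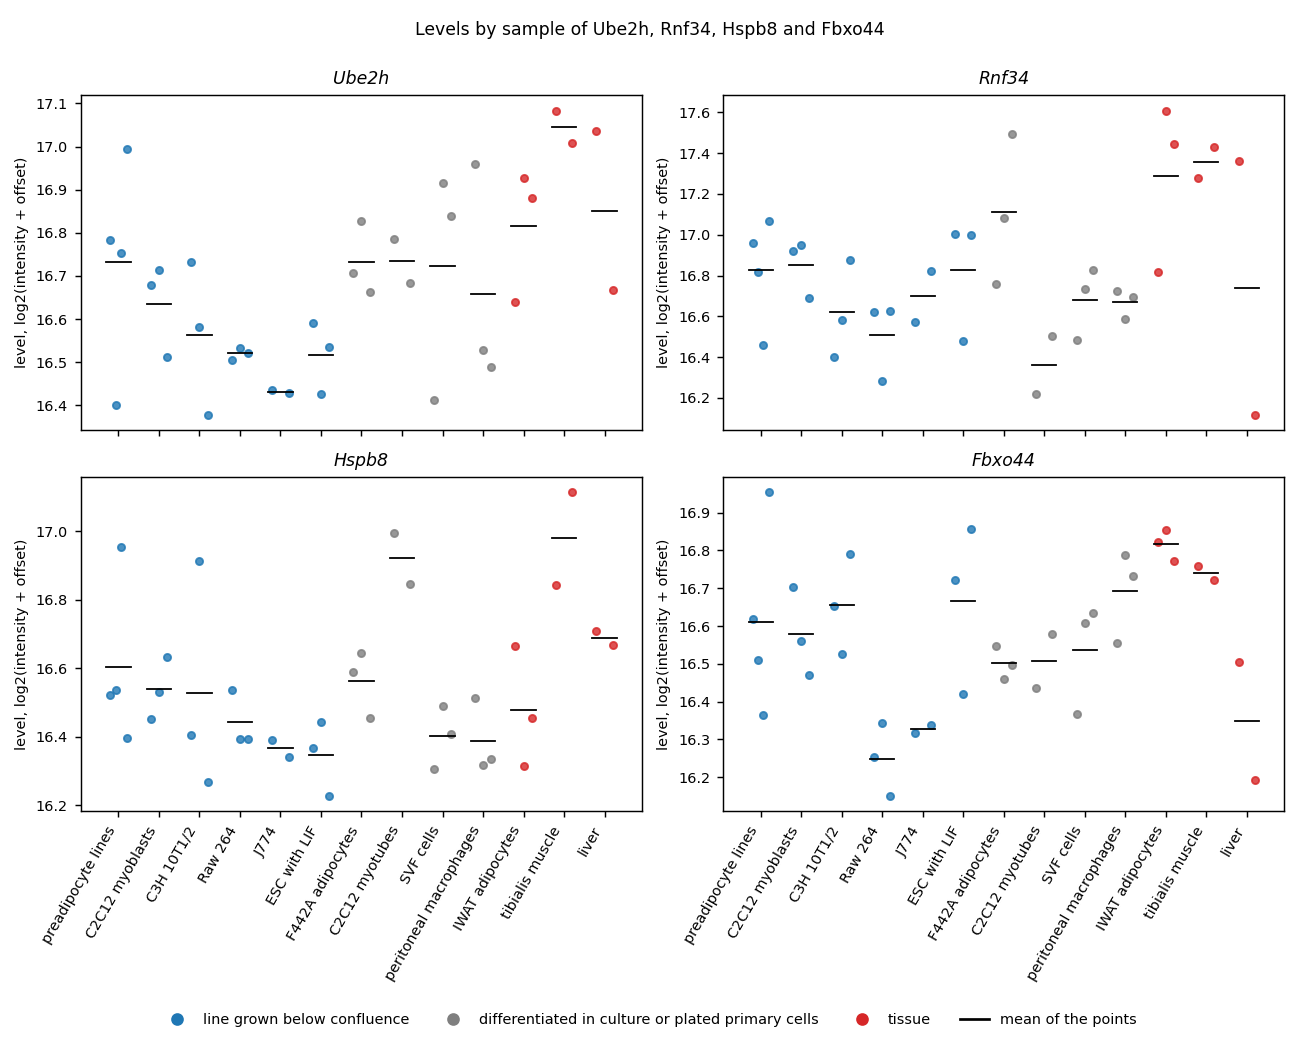
Levels of Ube2h, Rnf34, Hspb8 and Fbxo44 in every sample, as log2(intensity + offset), by group; bars are means, and the 3T3-L1 samples are averaged into 1 point. Hspb8 is high in tibialis muscle (16.84 and 17.11), C2C12 myotubes and the preadipocyte line Hgfu (16.95). Fbxo44 is low in Raw 264 and J774 (16.15 to 16.34).

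Among macrophages, peritoneal cells differed from their line counterparts in 2 members, where 2.98% of all genes were called. Cct2 lay at 16.45, 16.50 and 16.49 in peritoneal macrophages, at 16.83, 16.88 and 16.76 in Raw 264 and at 17.02 and 16.96 in J774. Every primary sample was below every line sample, and the difference was -0.43 ± 0.11 (adjusted p = 0.0275). Fbxo44, an F-box receptor, lay at 16.56, 16.79 and 16.73 in the peritoneal cells, at 16.25, 16.34 and 16.15 in Raw 264 and at 16.32 and 16.34 in J774. Its groups did not overlap either, and it was higher in the primary cells by 0.40 ± 0.11 (adjusted p = 0.0334). The call of Cct2 was lost without any 1 peritoneal sample, the 2nd Raw 264 or the 1st J774 sample, and that of Fbxo44 without the 2nd or 3rd peritoneal, the 3rd Raw 264 or either J774 sample. Between 0 and 3 members were called over these fits. Psmd8 (-0.39 ± 0.12, adjusted p = 0.0575) and Usp15 (0.26 ± 0.12, adjusted p = 0.295) did not pass. Usp15, which acts on TGF-beta signalling, was at 17.30 in the 2nd peritoneal sample, and its difference was 0.03 without it.

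Fbxo44 was also the 1 member called in the macrophage lines against the mesenchymal and preadipocyte lines, where 0.944% of all genes were. It lay at 16.65, 16.53 and 16.79 in C3H-10T1/2, and the 4 preadipocyte lines ran from 16.36 to 16.95. All macrophage line samples were below all of these, and the difference was -0.35 ± 0.09 (adjusted p = 0.0471). This call held without the 2nd 3T3-L1, the Hgfu, the 2nd C3H-10T1/2 or the 1st Raw 264 sample and was lost without any of the other 9 of the 13 samples, and 0 to 2 members were called over those fits. Proteasome genes had positive differences in 8 of 11 cases with a median of 0.17, none of them called by limma. Psmd8 led with 0.33 ± 0.09 (adjusted p = 0.0809), which became 0.19 without the 2nd J774 sample. Fkbp11 (-0.19 ± 0.09, adjusted p = 0.366) and Usp24 (-0.22 ± 0.09, adjusted p = 0.281) had the smallest p of the other classes.

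Peritoneal macrophages against SVF cells gave no limma call among the members (0.548% of all genes). Hspe1 lay at 16.80, 16.54 and 16.56 in macrophages and at 17.05, 17.08 and 17.12 in SVF cells. The groups did not overlap, with a difference of -0.45 ± 0.17 (adjusted p = 0.582). Rnf185, a ligase of the endoplasmic reticulum (0.39 ± 0.17, adjusted p = 0.828), Usp15 (0.32 ± 0.13, adjusted p = 0.695) and Psme3ip1 (0.14 ± 0.13, adjusted p = 0.995) did not pass. Usp15 stood at 0.09 without the 2nd peritoneal sample, and Psme3ip1 turned to -0.03 without the 1st SVF sample.

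Embryonic stem cells with LIF against the mesenchymal and preadipocyte lines gave no limma call among the members (0.274% of all genes). Cct2 lay at 16.72, 16.57 and 16.83 in the stem cells, a difference of -0.28 ± 0.10 (adjusted p = 0.648). Psmb5 (0.15 ± 0.09, adjusted p = 0.999), Fbxo2 (-0.22 ± 0.12, adjusted p = 0.999) and Usp38 (-0.22 ± 0.09, adjusted p = 0.925) were the lowest in p of the other classes. Without the 3rd stem cell sample Fbxo2 stood at -0.12 and Usp38 at -0.13. Timp2 was lower in the stem cells (-1.29 ± 0.27), and its part was not tested.

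**Figure D4:**
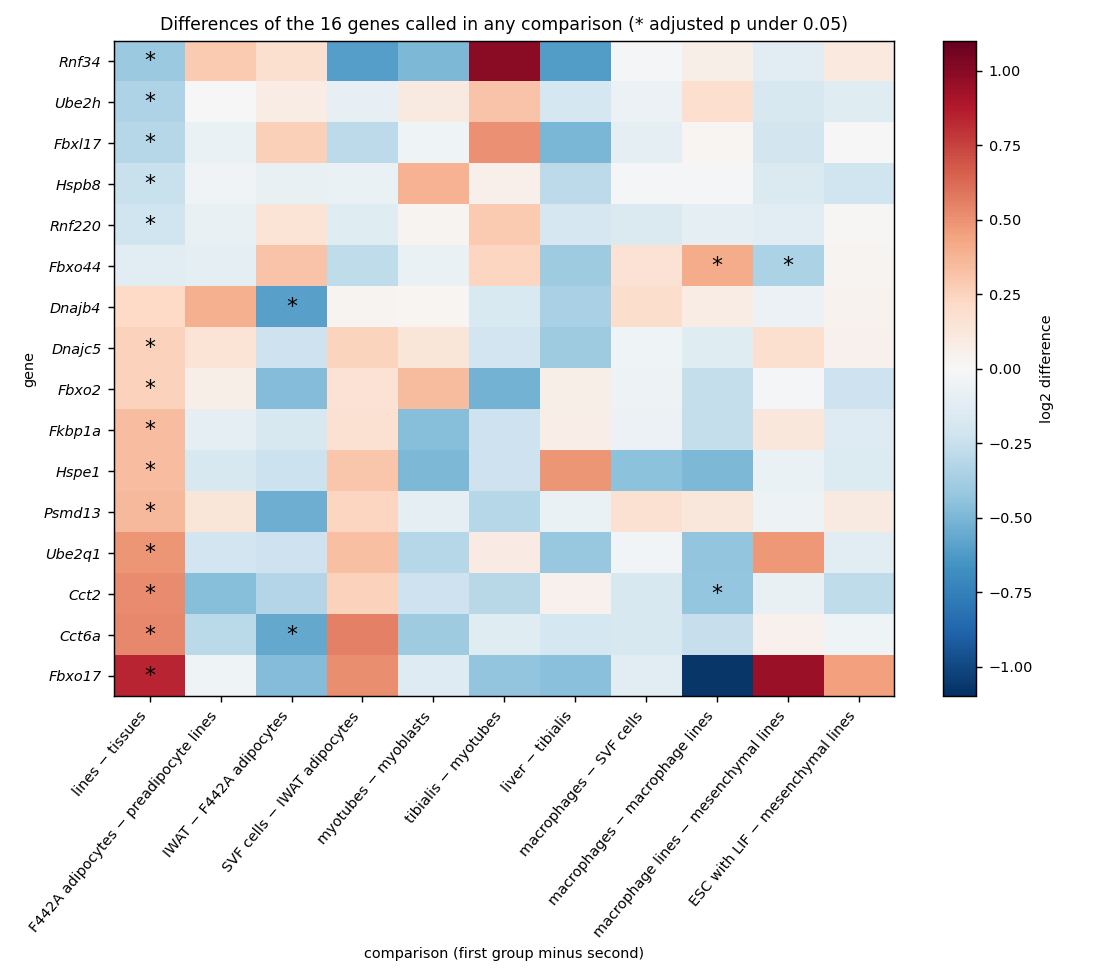
Difference (log2, first group minus second, by colour) of the 16 members called in at least 1 comparison, in 11 comparisons; stars mark adjusted p under 0.05. Most stars stand in the first column, growing lines minus tissues, and comparisons that share groups are not independent.

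Across all 13 groups, an F test called 7 members, against 11.2% of all genes: Cct2, Cct6a, Hspe1 and Hspb8 of the folding genes and Ube2q1, Fbxo44 and Fbxl17 of ubiquitin transfer. Their adjusted p ran from 0.000134 for Cct2 to 0.0417 for Hspe1. Cct2, Cct6a and Ube2q1 passed in all 37 fits that left out 1 sample, but Hspe1 was lost in 18 of them, Hspb8 in 15, Fbxl17 in 12 and Fbxo44 in 10. The count was 3 without the 3rd peritoneal sample and 1 with median scaling. Cct2 was highest in the preadipocyte lines (17.19 ± 0.23, SD, n = 4), followed by J774 (16.99 ± 0.04, n = 2) and C2C12 myoblasts (16.88 ± 0.07, n = 3). Raw 264 (16.82 ± 0.06), C3H-10T1/2 (16.79 ± 0.25), 3T3-F442A adipocytes (16.72 ± 0.06) and stem cells (16.71 ± 0.13) came next, and these neighbours differed by less than their spread. SVF cells and myotubes both stood at 16.65. Peritoneal macrophages had 16.48 ± 0.03, and IWAT adipocytes (16.40 ± 0.15), liver (16.39 ± 0.12) and tibialis muscle (16.35 ± 0.02) were lowest, again within their spread of each other.

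Cct6a had its highest mean in the preadipocyte lines too (17.08 ± 0.12) and its lowest in IWAT adipocytes (16.22 ± 0.11). Of the line groups C3H-10T1/2 was the lowest, at 16.51 ± 0.29. Among pairs of members called by the F test, the largest correlations over the 13 group means are given first. Cct2 and Cct6a correlated with r = 0.84 (rho = 0.81), Cct6a and Ube2q1 with r = 0.76, and Cct2 and Hspe1 with r = 0.72. Hspb8 and Fbxl17 followed with r = 0.68, Cct6a and Hspe1 had r = 0.55, and the lowest was r = -0.52 for Fbxl17 and Ube2q1. These describe group means from shared arrays and were not tested.

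The F test called no proteasome gene and no Usp gene, with 1 and 0 of them at an unadjusted p under 0.05, where 904 of all 3284 genes were. Psmd8 was nearest of the first class (adjusted p = 0.0669), followed by Psmd13 (0.240) and Psmd7 (0.249) among 19S genes, Psma1 (0.275) for the alpha ring and Psmb4 (0.369), Psmb5 (0.514) and Psmb11 (0.568) for the beta ring. Usp5 (0.208), Usp15 (0.250) and Usp40 (0.301) led the second class. Among RING ligases the nearest were Rnf34 (0.0735), Rnf220 (0.206) and Rnf185 (0.212), and among Trim genes Trim62 (0.0842), Trim68 (0.167) and Trim80 (0.253). For Fkbp1a the adjusted p was 0.0738, for Fkbp11 0.424, for Dnajc5 0.109, for Dnajb4 0.150, for Dnajc10 0.434 and for Hspa2 0.678. Fbxo2 had 0.0729, Cul4b 0.275, Ube2g2 0.118 and Ube2h 0.156.

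The range between a member's highest and lowest group mean had a width of 0.18 for the steadiest member and 1.46 for the widest. In all, 74 of the 90 members were called in none of the 11 pairwise comparisons, where 84.2% of all genes were called in none. They include every proteasome gene other than Psmd13, all 15 Usp genes and all 14 Trim genes.

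Of 91 other genes of protein quality control listed beside the members, 21 were measured. The F test called 2 of them, against 11.2% of all genes. In growing lines against tissues 2 of the 21 rose, where 5.79% of all genes did, and none fell, where 5.6% of all genes did. They were Rbx1, the RING subunit of cullin ligases (0.47 ± 0.10, adjusted p = 0.00223), and Ufd1, a cofactor of the unfoldase p97 (0.45 ± 0.10, adjusted p = 0.00251). Nploc4, the partner of Ufd1, was higher in peritoneal macrophages than in the macrophage lines (0.68 ± 0.16, adjusted p = 0.0142). The median difference of the 21 in lines against tissues was 0.03.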

How the data were processed

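Per the labels, RNA was labelled with 33P, hybridised to Resgen filters and quantified with Imagene. The values the authors deposited are linear spot intensities. Whether they were background-corrected or scaled is not given in the sources used. All 37 arrays of 1 kind and the 3 of ZIN40 cells without LIF were quantile normalised, log2(intensity + 36370) was taken, the offset being the 10th percentile, and limma 3.58.1 in R 4.3.3 was fitted over all 14 groups (25 residual degrees of freedom) with Benjamini-Hochberg adjustment over 5760 spots. The 3T3-L1 samples were averaged first. Calls have an adjusted p under 0.05. The procedure was run on simulated data with independent noise of capped spread and planted differences larger than most of those called here. That run does not test smaller differences or arrays that vary together.

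The 3420 spots with 1 symbol cover 3284 genes, and a gene is its brightest spot. The members and lists were chosen with earlier results of these data known. Genes named are those called (up to 12 per comparison and direction), the 3 of smallest F-test p per family, the member of smallest p per comparison and role, and other quality control genes only if called. Further members named for their values were chosen after these were seen.

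Same-numbered SVF and IWAT samples deviated together (correlations 0.26, 0.10 and 0.39), so a fit with the number as a block is given beside that comparison. Alternatives covered scaling, background, offset, dim spots, spot averaging, samples and blocks. Leaving out whole groups, the interactions and the crossed pairing were chosen after seeing the data.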

Additional observations from a re-analysis of the deposited data

Results flagged for a closer look

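Psmd2, a 19S base subunit, stood out in 1 of the 4 preadipocyte lines. Its level in Hgfu was 17.73, while 3T3-F442A had 16.40, Ob1774 had 16.51 and the 3T3-L1 samples had 16.43 and 16.55. The gap passed Dixon's 95% critical value for 4 samples, the 1 such result among the 39 named members tested, where chance gives about 1 group in 20. Hgfu, whose array had the lowest mean correlation with its own group (-0.07), was the line with the widest gap for 19 of these 39 members. The cause was not tested.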

How the results depend on the processing

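Counts of called members depended most on the scaling. With median scaling 3 members were called in lines against tissues, 1 in IWAT against 3T3-F442A adipocytes, 0 in peritoneal macrophages against macrophage lines, 0 in macrophage against mesenchymal lines and 1 by the F test. With no scaling these counts were 0, 0, 0, 0 and 2. Of all 5760 spots, median scaling called 218, 63, 20, 14 and 158 in the same order, and no scaling called 22, 0, 5, 2 and 289. In liver against tibialis muscle without scaling 89 members were called, all lower in liver. There 5632 of all 5760 spots were called, the median of all spots was -1.53, and Fbxl15 turned to -0.98. With background subtracted 1 member was called in SVF cells against IWAT adipocytes (20 of all 5760 spots) and 1 in macrophages against their lines (48 spots). The larger offset (4 times) gave 0 in IWAT against 3T3-F442A adipocytes (127 of all spots) and 2 in macrophage against mesenchymal lines (70 spots). Bright spots only gave 4 of 52 members in macrophages against their lines, where 204 bright spots were called. Without the arrays lacking LIF, IWAT against 3T3-F442A adipocytes had 1 (146 of all spots) and macrophage against mesenchymal lines 0 (45 spots). Fits of the compared groups only gave 2 in SVF cells against IWAT adipocytes (1.92% of all genes). They gave 4 in IWAT against 3T3-F442A adipocytes (4.78%) and 0 in macrophage against mesenchymal lines (0.244%). Fits of the compared groups with the replicate number as a block change both choices at once. They called 4 in SVF cells against IWAT adipocytes (3.9% of all genes) and 1 in tibialis muscle against myotubes (3.47%). IWAT against 3T3-F442A adipocytes had 3 (4.2%) and macrophages against their lines 1 (2.07%). The remaining comparisons that share numbers had 0. Same-numbered samples correlated at 0.26, 0.10 and 0.39 in SVF cells and IWAT adipocytes. Peritoneal macrophages and J774 had 0.15 and 0.14, tibialis muscle and myotubes 0.10, and Raw 264 and J774 -0.03 and -0.20. These values do not single out 1 paired comparison. Liver and tibialis correlated at -0.11, with 0 calls when crossed. In lines against tissues the group as a random block left 6, and leaving out the IWAT or the tibialis group left 8 each. Of all 5760 spots these fits called 267, 375 and 462, where the main fit called 623.

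Leaving out 1 sample at a time gave 9 to 16 calls in lines against tissues (fewest without the 2nd tibialis sample), 0 to 1 in 3T3-F442A adipocytes against preadipocytes, 0 to 5 in IWAT against 3T3-F442A adipocytes, 0 to 3 in tibialis muscle against myotubes, 0 to 2 in liver against tibialis muscle, 0 to 3 in macrophages against their lines, 0 to 2 in macrophage against mesenchymal lines and 3 to 9 by the F test. The F-test count was lowest without the 3rd peritoneal and highest without the 3rd C3H-10T1/2 sample. The other comparisons stayed at 0. The 14 members called in lines against tissues kept their direction under every processing alternative run and with each sample left out. Causes were not tested. Dim spots and unequal replicates limit small differences.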

Other observations

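Psmb8, a catalytic subunit of the immunoproteasome induced by interferon, was measured beside the members. It was higher in SVF cells than in IWAT adipocytes (0.52 ± 0.13, adjusted p = 0.0483), and its partner Psmb9 stood at 0.20 ± 0.11 there (adjusted p = 0.649). In macrophage lines against mesenchymal lines Psmb8 had 0.26 ± 0.09 (adjusted p = 0.179) and Psmb9 0.26 ± 0.08 (adjusted p = 0.118). Psmb9 was called by limma in none of the 11 comparisons. No member differed by limma between fat and muscle in its change from culture to tissue or with differentiation, where 4 and 7 members had an unadjusted p under 0.05. Over all genes 0.365% and 0.213% were called and 7.19% and 9.84% had such a p.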
